A study of Mus musculus with 2 samples.

Results

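Of 16634 deposited cells, 128 carried the atlas label Basophil(Bone-Marrow_c-kit), a reference class of basophils from mouse bone marrow, and these basophil-labelled cells are described here. They were found in the deposited cell table, in whichever of the authors' 8 clusters they lay, by the column of labels named for the mouse cell atlas. The spleen library held all but 16 of them, and those 16 came from the bone marrow library. They made up 1.71% of the 6546 spleen cells (exact 95% Clopper-Pearson interval 1.41 to 2.06%) and 0.159% of the 10088 bone marrow cells (0.0907 to 0.257%). The label was assigned from the RNA of the same cells, so the levels below describe the cells that carry it and are no test of it.

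All cells came from C57BL/6 mice, 6 to 8 weeks of age when 750000 Hepa1-6 cells, a mouse hepatoma line, were placed in the left liver lobe to give an orthotopic tumour. From spleen and from bone marrow, cells low in or without lineage markers and bearing Sca1 and much c-Kit (LSK, the gate of blood stem and early progenitor cells) were sorted after lineage depletion or CD117 bead enrichment, and 1 droplet 3′ RNA library was made per tissue. The number of mice behind a library is not stated, every animal carried the tumour, and tumour-free mice were not analysed here. With 1 library per tissue and cells that are no replicates, no test was run, every interval (95%) covers counting error alone, and tissue, sort and library preparation cannot be told apart.

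Basophils are rare granulocytes of allergic and anti-parasite immunity. They bind IgE through the high-affinity receptor made of the chains encoded by Fcer1a, Ms4a2 and Fcer1g, store histamine, and in mice are marked by the granule proteases Mcpt8 and Prss34. Mast cells share the receptor, histamine and carboxypeptidase A3 (Cpa3) with them, but fill their granules with chymases such as Cma1 and Mcpt4 and with tryptases such as Tpsb2, and progenitors with both fates have been described in mouse bone marrow and spleen. The authors' cluster MCP holds most cells with mast cell labels in these data, so the spleen MCP cells without the basophil label were the closest cells for comparison.

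In the spleen, 84 labelled cells (75%) lay in cluster MCP, 24 in HSC-1, 3 in HSC-2 and 1 in HSC-3. In the bone marrow, 14 of 16 lay in MCP and 2 in HSC-2. Labelled cells made up 15.2% of the 553 spleen MCP cells and 38.9% of the 36 bone marrow MCP cells. The other deposited set of reference labels called 56 of the spleen cells Ba-4 and 50 E/B, and called the 16 bone marrow cells E/B in 7 cases, Ba-1 in 4, Ba-4 in 2, Eo in 2 and HSC-1 in 1. Of the 469 unlabelled spleen MCP cells, 395 (84.2%) carried the atlas label of a mast cell of neonatal muscle, and 15 carried a dendritic cell label.

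Depth differed between the groups. Labelled cells had a median of 4891 unique molecular identifiers (UMIs, counted molecules) in the spleen (2424 to 13718) and of 3961 in the bone marrow (1900 to 12508), against 1662 in unlabelled spleen MCP cells (644 to 24312). Medians over whole libraries were 9978 UMIs in spleen and 5991 in bone marrow. Counts were summed over the cells of a group and scaled to counts per 1000000 UMIs (CPM), over sums of 596928, 79232 and 1124438 UMIs in the same order of groups. The part of this depth gap in shares of cells was not tested beyond thinning each cell to an equal number of UMIs. Mitochondrial transcripts took a median of 3.09% of UMIs in labelled spleen cells, 2.99% in labelled bone marrow cells and 3.78% in unlabelled MCP cells. The libraries shared 16 cell barcodes, none of them among labelled cells.

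The defining basophil markers did not travel together in the spleen cells. Ms4a2, the β chain of the IgE receptor, was found in 95 labelled spleen cells (84.8%) and Mcpt8 in 49 (43.8%), but Prss34 in only 1. Mcpt8 (chr14:56082166-56085273 in mm10) gave 204 UMIs in labelled spleen cells, 342 CPM (296 to 392), against 104 UMIs and 92.5 CPM (75.57 to 112.07) in unlabelled MCP cells, where 33 of 469 cells had a UMI of it. In labelled bone marrow cells it gave 122 UMIs, 1540 CPM (1279 to 1838), in 7 of 16 cells. Over the summed cells the level was highest in the marrow, but 2 marrow cells, with 71 and 35 UMIs, set that rank. Without the 2 cells richest in Mcpt8 in each group, a comparison added after seeing the data, the level was 260 CPM in labelled spleen, 288 CPM in labelled bone marrow and 60.8 CPM in unlabelled MCP cells. The marrow value then rested on 16 UMIs in 14 cells, and the step removed a larger share of that small group. The share of cells with a Mcpt8 UMI was 43.8% in the labelled cells of both tissues.

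The 3.69-fold higher Mcpt8 of labelled spleen over unlabelled MCP cells (2.90 to 4.73), a log2 ratio of 1.78, depended on the cells' depth. It was 0.42 when cells were thinned to 3400 UMIs, which kept 102 labelled and 75 unlabelled cells, and 0.74 without cells under 3326 UMIs. It was 3.09 at 1000 UMIs, which kept every labelled and 434 unlabelled cells, and there 18.8% of labelled and 1.84% of unlabelled cells had a Mcpt8 UMI. The level was thus over 2-fold higher against MCP cells of all depths and less than that against the deep ones. Cell classes that should lack the gene had a Mcpt8 UMI in 1.44% of 693 cells (spleen cluster LP, median depth 7899 UMIs) and 0.337% of 891 cells (spleen cluster MEP, median 36084).

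Prss34 (chr17:25298394-25300165), the other basophil protease, was found in few labelled cells of either tissue. It gave 10 UMIs in labelled spleen cells, all in 1 cell of cluster HSC-2, or 16.8 CPM (8.03 to 30.8), against 210 UMIs in 4 of the 16 labelled bone marrow cells, or 2650 CPM (2304 to 3034). The spleen level was 158-fold lower (84.3 to 335). Of the 210 marrow UMIs, 110 and 78 lay in 2 cells, and without them the marrow level was 397 CPM. Those 4 marrow cells held 91.7% of all Prss34 UMIs of the bone marrow library. Unlabelled spleen MCP cells, in contrast, had the transcript in 95 of 469 cells, at 181 CPM (157 to 208), so it was 10.8-fold lower (5.77 to 22.9) in the cells with the basophil label than in those without it. At 1000 UMIs per cell, 0% of labelled spleen cells (exact upper bound 3.24%) and 15.2% of unlabelled MCP cells showed it.

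The chains of the IgE receptor were split as well. Ms4a2 (chr19:11615523-11623719) stood at 459 CPM (406 to 517) in labelled spleen cells, 505 (361 to 687) in labelled bone marrow cells and 404 (367 to 443) in unlabelled MCP cells, and the intervals overlapped. Fcer1a (chr1:173221284-173227214), the chain that binds IgE, stood at 199 CPM (165 to 239) in labelled spleen and 164 (87.4 to 281) in labelled bone marrow cells, against 1882 (1802 to 1964) in unlabelled MCP cells, and was 9.44-fold lower (7.85 to 11.5) in the labelled than in the unlabelled spleen cells. Fcer1g, the shared signalling chain, was 1114 CPM against 2148, 1.93-fold lower. The receptor's RNA in labelled spleen cells was thus level with unlabelled MCP cells in its β chain and low in its α chain. Cd200r3, an activating receptor of basophils and mast cells, had 1 UMI in the labelled spleen cells and 4 in the 16 labelled bone marrow cells, against 171 in the 469 unlabelled MCP cells. A cell of the spleen with the label had UMIs of none of the 4 markers in 8 cases, of 1 in 41, of 2 in 34, of 3 in 28 and of all in 1. In the bone marrow, these counts were 5, 3, 4, 1 and 3. Since Prss34 and Cd200r3 were at or near 0 in the spleen and Fcer1a was low, the markers did not bear out the atlas name there, and the cells are called basophil-labelled throughout.

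**Figure D1:**
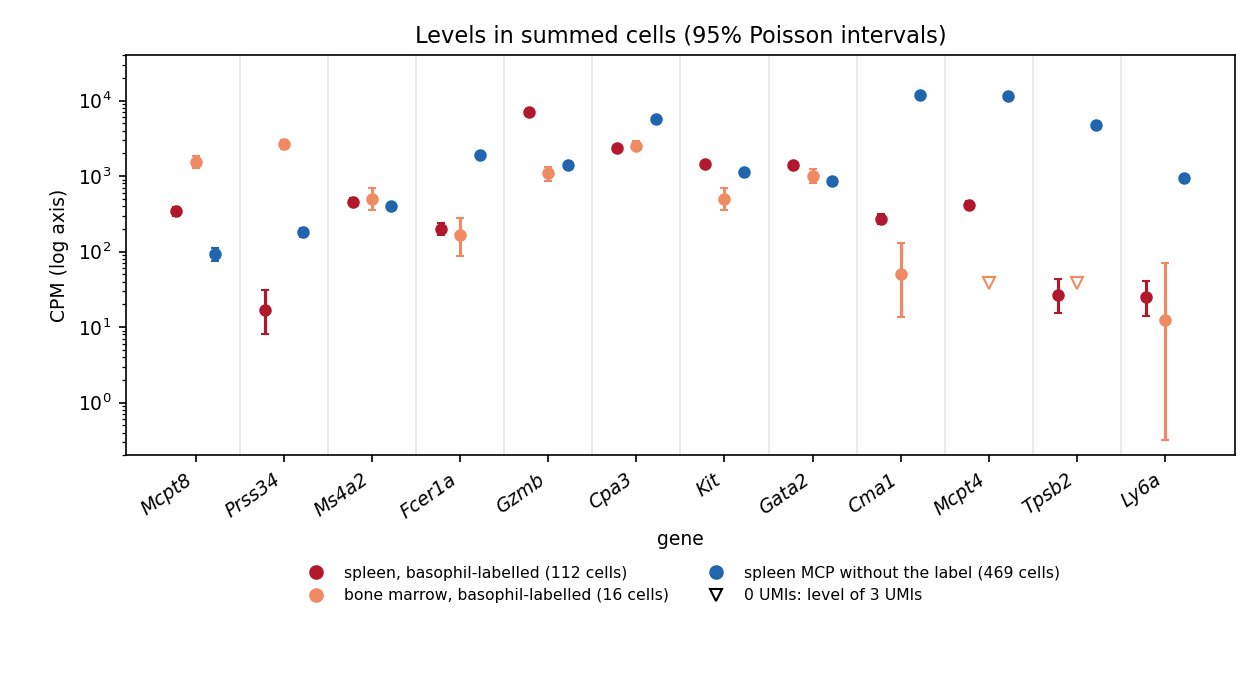
Levels of 12 genes (CPM, log axis) in summed cells of labelled spleen cells (dark red), labelled bone marrow cells (orange) and unlabelled spleen MCP cells (blue), with 95% Poisson intervals; an open triangle marks a sum with 0 UMIs, drawn at the level of 3 UMIs. Gzmb stands at 7001 CPM in labelled spleen cells, above both other groups, while Cma1, Mcpt4 and Tpsb2 are highest in unlabelled MCP cells and Prss34 in labelled bone marrow cells.

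What the labelled spleen cells held instead was granzyme B. Gzmb, a serine protease best known from the granules of cytotoxic lymphocytes and also made by mouse mast cells, gave 4179 UMIs in them, or 7001 CPM (6790 to 7216). It gave 86 UMIs and 1085 CPM (868 to 1340) in labelled bone marrow cells and 1578 UMIs and 1403 CPM (1335 to 1474) in unlabelled spleen MCP cells. Labelled spleen cells stood 4.99-fold above unlabelled MCP cells (4.71 to 5.29) and 6.45-fold above labelled bone marrow cells (5.21 to 8.08), and 257-fold above the 6434 other spleen cells together (244 to 270). The transcript was present in all but 3 labelled spleen cells (97.3%), with a median of 33 UMIs per cell (quartiles 18 and 51.25, highest 143), in 8 of 16 labelled bone marrow cells and in 75 of 469 unlabelled MCP cells. The labelled cells, 1.71% of the spleen library, carried 64.2% of its Gzmb UMIs. At 3400 UMIs per cell the log2 ratio to unlabelled MCP cells was 1.28, against 2.31 over all cells, and it stayed above 2-fold in each alternative tried. In the 2 spleen clusters used above for Mcpt8, 1.44% (LP) and 10.4% (MEP) of cells had a Gzmb UMI. Whether LP cells lack this lymphocyte gene was not tested.

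The mast cell proteases went the other way. Cma1, a chymase, stood at 273 CPM (233 to 318) in labelled spleen and 50.5 (13.8 to 129) in labelled bone marrow cells, against 11816 (11616 to 12018) in unlabelled MCP cells, and was 43.3-fold lower (37.1 to 50.8) in labelled than in unlabelled spleen cells. Mcpt4, another chymase, was 415 CPM (365 to 471) against 11651 (11452 to 11852), 28.0-fold lower, and 141 of its 248 UMIs came from 1 cell, without which the level was 181 CPM. The tryptase Tpsb2 was 180-fold lower (111 to 315), at 26.8 against 4827 CPM. The related tryptase Tpsab1 had 0 UMIs in labelled cells against 753, which made it at least 133-fold lower at a floor of 3 UMIs. Labelled bone marrow cells had 0 UMIs of Mcpt4, Tpsb2 and Tpsab1. Cpa3 was high in all 3 groups, at 2374 CPM in 107 labelled spleen cells, 2524 in all 16 labelled bone marrow cells and 5670 in unlabelled MCP cells, 2.39-fold lower (2.25 to 2.53) in labelled than in unlabelled spleen cells. Both Gzmb and Cpa3 were present in 105 labelled spleen cells.

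**Figure D2:**
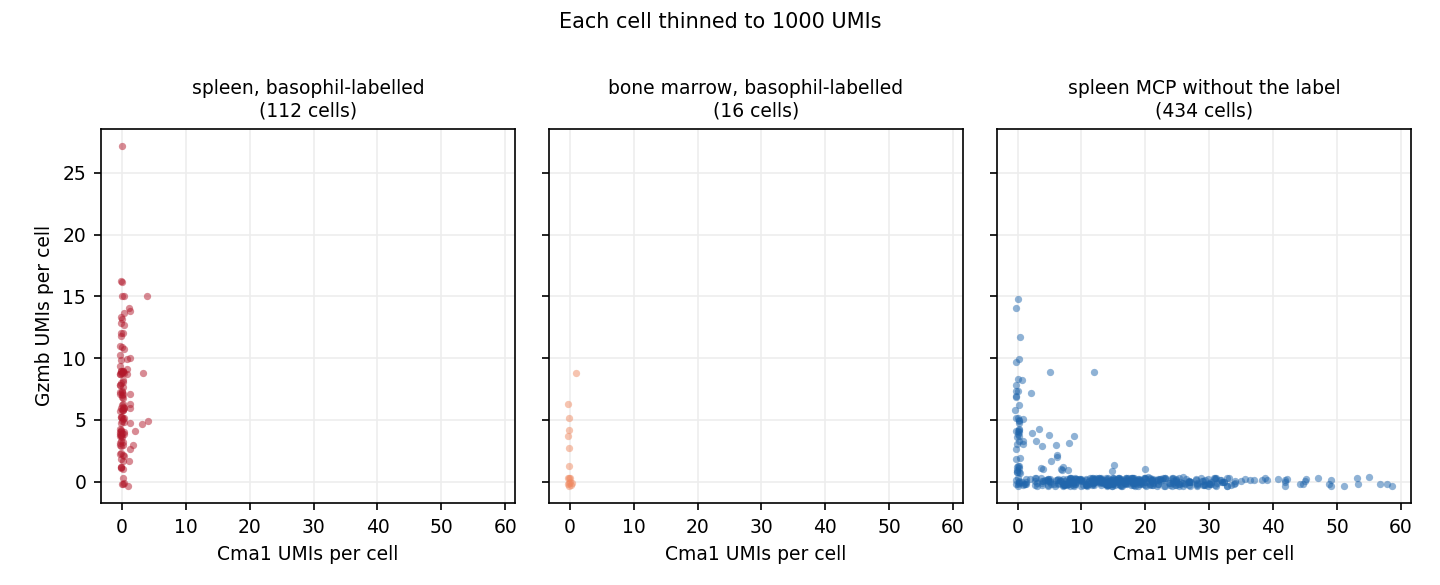
Gzmb against Cma1 UMIs per cell after each cell was thinned to 1000 UMIs, in labelled spleen cells (left), labelled bone marrow cells (middle) and unlabelled spleen MCP cells (right); points are cells, spread slightly so that equal values do not hide each other. Gzmb exceeded Cma1 in 107 labelled spleen cells and Cma1 exceeded Gzmb in 377 of 434 unlabelled MCP cells.

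At 1000 UMIs per cell, a depth added after seeing the data, the pattern held cell by cell. The same count was not made at 3400 UMIs per cell, which kept only 75 unlabelled MCP cells. With 1000 UMIs per cell, labelled spleen cells had a median of 6 Gzmb and 0 Cma1 UMIs, and unlabelled MCP cells a median of 0 Gzmb and 15 Cma1 UMIs. More Gzmb than Cma1 was counted in 107 labelled spleen cells (95.5%), 7 of 16 labelled bone marrow cells and 48 of 434 unlabelled MCP cells. Spleen MCP cells without the label thus included a minority with the same order of these transcripts. Without thinning, 59 labelled spleen cells (52.7%) had a UMI of Cma1, Mcpt4 or Tpsb2, as did 456 of 469 unlabelled MCP cells (97.2%). Cma1 by itself was in 42 labelled spleen cells, 440 of 469 unlabelled MCP cells, 16.9% of LP and 20.5% of MEP cells, classes that differ in depth. The part of free RNA and of doublets in labelled cells with these mast cell transcripts was not tested. Above the 95th percentile of UMIs of their library lay 0 labelled cells.

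Gzmb, Mcpt8, Mcpt4 and Cma1 are members of one cluster of granule protease genes on chromosome 14. From Cma1 to Gzmb the cluster spans 321 kb (chr14:55941451-56262260, mm10). Picked by name, 10 of its genes are given here, in the order Cma1, Cma2, Mcpt1, Mcpt9, Mcpt2, Mcpt4, Mcpt8, Ctsg, Gzmc and Gzmb. Other genes of the interval are not shown, so neighbours in this order need not be adjacent. Within this interval the labelled spleen cells were high at the Gzmb end, unlabelled MCP cells at Cma1 and Mcpt4, and labelled bone marrow cells at Mcpt8 and at Ctsg, the gene of cathepsin G. Mcpt1, a mast cell chymase, was level, at 365 CPM in labelled spleen cells (91 of 218 UMIs in 1 cell) and 347 in unlabelled MCP cells. Mcpt2 was 22.3-fold lower (10.1 to 61.3) in labelled than in unlabelled spleen cells, at 10.1 against 224 CPM, and Cma2 was 16.8 against 64.9 CPM. Gzmc and Mcpt9 had 0 UMIs in all 3 groups. Cma2, Mcpt2, Mcpt9 and Gzmc are named for their place in the cluster, after their values had been seen. These genes are relatives, and reads shared between near-identical copies could be split or dropped in counting.

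**Figure D3:**
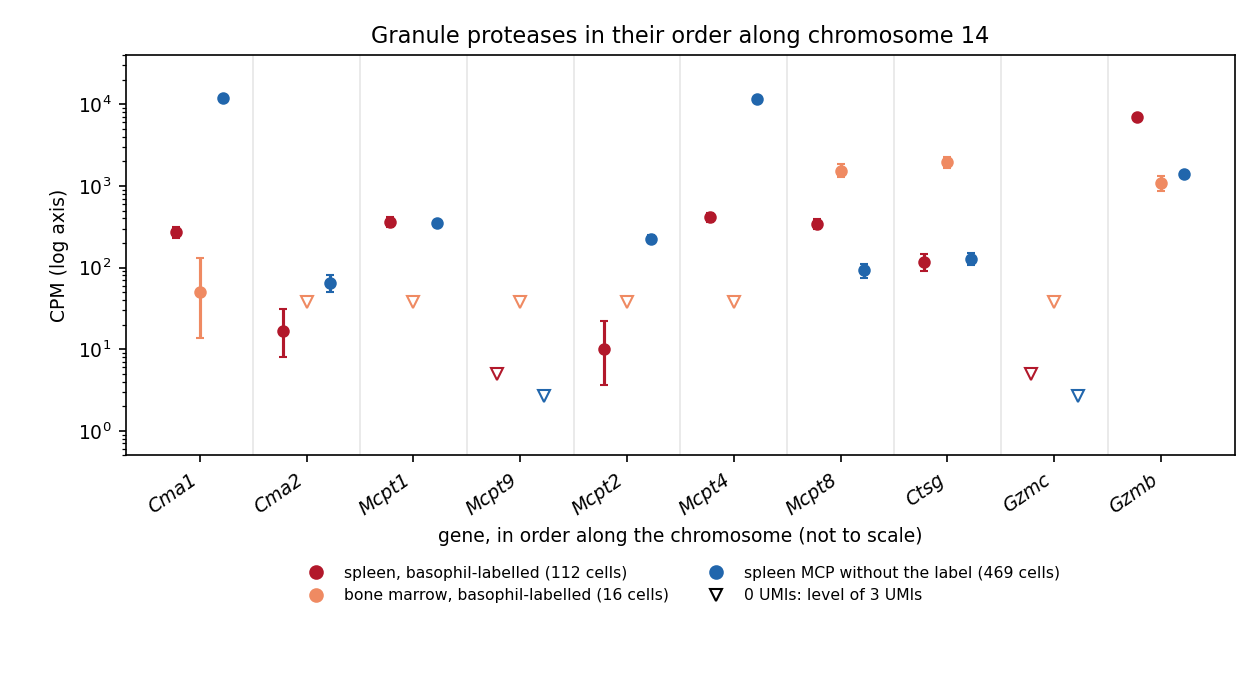
Levels (CPM, log axis) of 10 granule protease genes in their order along chromosome 14, spacing not to scale, in labelled spleen cells (dark red), labelled bone marrow cells (orange) and unlabelled spleen MCP cells (blue), with 95% Poisson intervals; an open triangle marks 0 UMIs, drawn at the level of 3 UMIs. The highest level sits at Gzmb for labelled spleen cells, at Ctsg for labelled bone marrow cells and at Cma1 for unlabelled MCP cells.

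The bases before the starts of these 4 genes are shown because the genes lie in one cluster and are each high in a different group or far apart between groups. They are the minus strand of GRCm38.p6 as given by RefSeq, 5′ to 3′, up to the base before the more upstream of the RefSeq and GENCODE starts, at chr14:56262335-56262584 for Gzmb, chr14:56085274-56085447 for Mcpt8, chr14:56062314-56062560 for Mcpt4 and chr14:55944676-55944925 for Cma1. Capitals mark the word AGATAA or AGATAG or TGATAA or TGATAG, forms of the motif bound by GATA factors, on either strand.
Gzmb: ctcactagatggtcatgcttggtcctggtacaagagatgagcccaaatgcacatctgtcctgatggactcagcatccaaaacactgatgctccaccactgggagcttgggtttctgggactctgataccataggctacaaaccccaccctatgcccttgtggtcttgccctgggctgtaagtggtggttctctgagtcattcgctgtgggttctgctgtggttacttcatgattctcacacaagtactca
Mcpt8: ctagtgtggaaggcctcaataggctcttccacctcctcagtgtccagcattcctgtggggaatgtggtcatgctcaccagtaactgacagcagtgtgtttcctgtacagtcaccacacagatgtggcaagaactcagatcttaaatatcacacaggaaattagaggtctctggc
Mcpt4: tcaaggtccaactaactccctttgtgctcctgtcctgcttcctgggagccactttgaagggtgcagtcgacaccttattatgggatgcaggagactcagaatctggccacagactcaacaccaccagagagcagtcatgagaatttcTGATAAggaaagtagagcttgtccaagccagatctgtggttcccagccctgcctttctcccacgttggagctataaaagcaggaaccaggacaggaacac
Cma1: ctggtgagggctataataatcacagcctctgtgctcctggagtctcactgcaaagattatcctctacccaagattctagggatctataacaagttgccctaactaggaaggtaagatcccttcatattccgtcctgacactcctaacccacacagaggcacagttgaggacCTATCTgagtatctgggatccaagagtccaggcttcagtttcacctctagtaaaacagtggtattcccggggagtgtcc
In the 250 bases before the RefSeq start, Mcpt4 and Cma1 held 1 such word each, TGATAA beginning 103 bases before the start and, on the other strand, AGATAG 79 bases before it. Gzmb and Mcpt8 held 0. Among the same windows of 32851 RefSeq promoters, 26.5% held 1 or more of these words. The words CATGTG and CACGTG, forms of the E-box bound by MITF, were in none of the 4 windows and in 17.6% of all. Such a match is a description of letters, and its absence says only that they are not in this window. The RNA of Gata2, the GATA factor of basophils and mast cells, was 1402 CPM in labelled spleen, 1010 in labelled bone marrow and 860 in unlabelled MCP cells, and that of Mitf, the mast cell factor, was 191, 50.5 and 222 CPM in the same order, both within 2-fold between labelled and unlabelled spleen cells.

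Against unlabelled MCP cells, 318 of 6854 measured genes (4.64%) were at least 2-fold higher in labelled spleen cells and 313 (4.57%) at least 2-fold lower, with a median log2 ratio of 0.12 (pseudocount of 10 CPM; measured means at least 10 UMIs expected in the smaller sum). Of the genes past 2-fold, 50.4% were higher, 32.1% with trimmed-mean (TMM) scaling of the sums, which moved the median gene by −0.17 on the log2 scale, 36.6% with centring on the median gene and 31.8% with a pseudocount of 50 CPM. Of 16 mast cell genes 15 were measured, 9 were lower and 1, Gzmb, was higher, with a median of −3.55, and of 15 measured granule proteases 2 were higher and 9 lower. Genes of that list that encode no protease were both far apart and level between the groups. The receptor genes Mrgprb1 and Mrgprb2, through which mast cells sense basic secretagogues, had 1 and 0 UMIs in labelled cells against 797 and 301 in unlabelled ones, and Tph1, the serotonin synthesis enzyme, had 0 against 472. Kit, the stem cell factor receptor, at 1454 against 1145 CPM, and Slc18a2, the vesicular monoamine transporter, at 571 against 446 CPM, were within 2-fold. Of 18 basophil genes 14 were measured, 2 (Mcpt8 and Cebpa) were higher and 2 (Prss34 and Cd200r3) lower, with a median of 0.56. Cebpa, a granulocyte transcription factor, rested on 23 UMIs in labelled and 6 in unlabelled cells, and its log2 ratio of 1.66 was 0.86 without the labelled cells of HSC-2 and HSC-3.

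**Figure D4:**
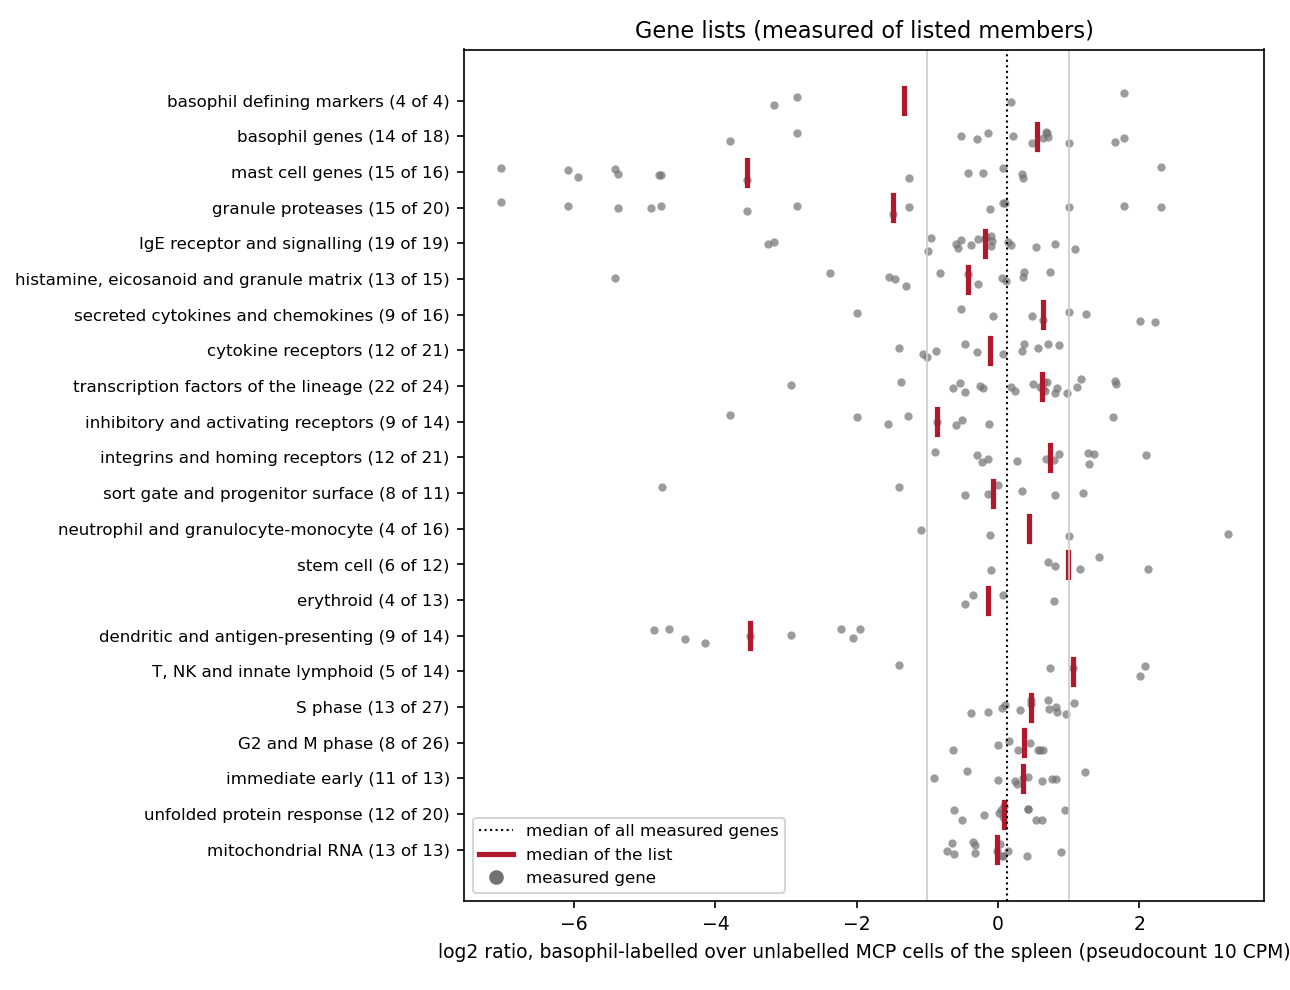
Log2 ratio of labelled over unlabelled spleen MCP cells (pseudocount of 10 CPM) for the measured members of gene lists; grey points are genes, red bars list medians, the dotted line the median of all measured genes (0.12) and the thin lines 2-fold. Mast cell and antigen-presenting genes lie lowest, with medians of −3.55 and −3.51, while most other lists lie within 1 of the median of all genes.

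Genes of IgE signalling were mostly level, and several mediator genes were lower. For every list count against unlabelled MCP cells below, the shares over all measured genes were 4.64% higher and 4.57% lower. Of 19 measured genes of the IgE receptor and its signalling, 1 was higher (Pik3cd) and 2 lower (Fcer1a and Rgs13), with a median of −0.19. Of 13 measured genes of histamine, eicosanoids and granule matrix, 0 were higher and 5 lower, Tph1 and Ptgs1, a prostaglandin synthesis enzyme with 1 UMI in labelled against 57 in unlabelled cells, the most. Hdc, which makes histamine, was 2.79-fold lower (2.42 to 3.23), at 379 CPM in labelled spleen cells and 530 in labelled bone marrow cells against 1056 in unlabelled MCP cells. Alox5, which starts leukotriene synthesis, was 253 against 148 CPM, and Cyp11a1, a steroid synthesis enzyme of mast cells and basophils, 873 against 750 CPM, both within 2-fold. Of 12 measured cytokine receptors, 0 were higher and 3 lower; Il1rl1, the IL-33 receptor, was 2.11-fold lower, at 481 against 1013 CPM, and its log2 ratio of −1.06 was −0.44 at 3400 UMIs per cell. The IL-3 receptor chains Il3ra (53.6 against 68.5 CPM) and Csf2rb (395 against 263 CPM) were within 2-fold.

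Secreted factors divided by gene. Ccl4, a chemokine for lymphocytes and monocytes, was 1164 CPM in labelled spleen and 921 in labelled bone marrow cells, against 282 in unlabelled MCP cells, 4.13-fold higher (3.61 to 4.73) in labelled than in unlabelled spleen cells. Ccl3, its close relative, was 558 and 618 against 230 CPM, 2.42-fold higher, and its log2 ratio of 1.24 was 0.25 at 3400 UMIs per cell. Ccl9 was 82.1 and 215 against 9.78 CPM. Ccl2, which draws monocytes, was 221 CPM in labelled spleen cells, at 0 UMIs in labelled bone marrow cells and 914 in unlabelled MCP cells, 4.13-fold lower (3.45 to 4.99) in labelled spleen cells. The cytokines of basophils were scarce: Il4 was 77.1 CPM in labelled spleen, 25.2 in labelled bone marrow and 115 in unlabelled MCP cells, Il6 was 31.8, 0 and 16.9 CPM, and Il13 had 1 UMI in all labelled cells. Of the 9 measured members of the list, 3 were higher and 1 lower.

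Among surface and progenitor genes, the labelled cells of both tissues had little RNA of the gene for Sca1. All cells had been sorted as bearing Sca1, and the protein was not compared with the RNA here. Ly6a, which encodes Sca1, a marker of the sort gate, was in 15 labelled spleen cells at 25.1 CPM (14.1 to 41.4) and in 1 of 16 labelled bone marrow cells, against 299 of 469 unlabelled MCP cells at 939 CPM (883 to 998), and was 37.4-fold lower (22.6 to 67.0) in labelled than in unlabelled spleen cells. Itgb7, the integrin chain by which mast cell and basophil progenitors have been sorted, was 302 against 334 CPM. Of 12 measured integrins and homing receptors 4 were higher and 0 lower. Itga4, the α4 integrin, was 2.60-fold higher, at 1122 against 432 CPM, with a log2 ratio of 1.36 that was 0.74 at 3400 UMIs per cell. Of 6 measured stem cell genes 3 were higher and 0 lower, Angpt1, a vascular growth factor made by stem cells, the most, at 283 against 56.9 CPM. Of 22 measured transcription factors 4 were higher and 2 lower; Lmo4, a LIM-domain cofactor, was 632 CPM in labelled spleen and 1578 in labelled bone marrow cells against 191 in unlabelled MCP cells.

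Transcripts shared with lymphocytes were among the highest ratios. Cd7 was 320 against 49.8 CPM, 6.42-fold higher (4.75 to 8.82), Lag3, an inhibitory receptor, 154 against 22.2 CPM, and Nkg7, a protein of cytotoxic granules, 660 against 149 CPM. At 1000 UMIs per cell, 49.1% of labelled spleen, 18.8% of labelled bone marrow and 8.29% of unlabelled MCP cells had a Nkg7 UMI, with 6.85% in spleen MEP cells, the class used above as background. Without thinning these shares were 89.3%, 75%, 15.4% and, in the far deeper MEP cells, 40.2%. Trbc1, a T-cell receptor constant chain, was 328 against 73.8 CPM, and stood at 182 CPM in the 6434 other spleen cells. At 1000 UMIs per cell it was in 25% of labelled spleen, 2.53% of unlabelled MCP and 1.35% of MEP cells, and in 58.9%, 4.90% and 7.41% without thinning. Of the 14 genes of T, NK and innate lymphoid cells, 5 were measured, 3 higher and 1 lower, and 7, Cd3d, Cd3e, Cd3g, Tcf7, Bcl11b, Ncr1 and Thy1, had 0 UMIs in labelled spleen cells. The summed level of the list was 1154 CPM in labelled spleen, 530 in labelled bone marrow and 514 in unlabelled MCP cells. Scin, an actin-severing protein, was 578 against 119 CPM, and Fut8, a fucosyltransferase, 250 against 48.0 CPM.

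Antigen presentation genes were lower in the labelled cells than in unlabelled MCP cells, a difference that depended on the cells compared. All 9 measured members of that list were at least 2-fold lower, Cd74 at 73.7 against 2436 CPM and H2-Aa at 38.5 against 1216 CPM, with summed levels of 434 CPM in labelled spleen and 568 in labelled bone marrow cells against 8602 in unlabelled MCP cells. Xcr1, Batf3, Siglech and Itgax, which mark dendritic cells, had 0 UMIs in labelled spleen cells. The unlabelled MCP cells include the 15 with a dendritic label, whose part was not tested by itself. With the 632 mast-labelled spleen cells of all clusters in their place, the log2 ratio of Cd74 was −1.49, against −4.87. That group drops the dendritic-labelled and other cells without a mast label and adds mast-labelled cells of HSC-1. Ciita and Dnase1l3 turned to 0.0984. Both were scarce, with 0 UMIs in the mast-labelled cells of HSC-1, so this turn is not read as a direction. Against the mast-labelled cells of HSC-1, 4 of the 14 members were measured and 0 were lower or higher by 2-fold. Over all 4221 genes measured there, 6.06% were lower and 6.52% higher, so 0 of 4 is not read as a result. The summed level of the list was 434 CPM in labelled cells against 716 CPM. Eosinophil genes were near 0: 8 of 10, among them Prg2 and Epx, had 0 UMIs in labelled spleen cells. Of 13 measured S phase genes 1 was higher, and of 8 measured G2 and M phase genes 0 were, with 0 lower in either list. The shares over all measured genes were 4.64% higher and 4.57% lower. Summed levels were 749 against 506 CPM for the S phase list and 1151 against 839 CPM for the G2 and M phase list. Mki67 was 60.3 against 36.5 CPM, in 10 labelled spleen cells. Of 12 measured unfolded protein response genes 0 were higher and 0 lower, with a median of 0.08. None of the 13 mitochondrial and 4 measured erythroid genes passed 2-fold either, with medians of −0.01 and −0.14. Of 11 measured immediate early genes, induced by handling and by stimulation, 1 was higher and 0 lower. Of 9 measured inhibitory and activating receptors 1 was higher and 4 lower.

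The highest log2 ratio to unlabelled MCP cells, 3.25 for Mpo (myeloperoxidase), came from few cells. Its 51 UMIs lay in 4 labelled spleen cells, 29 and 20 of them in 2 cells of HSC-2, and without the HSC-2 and HSC-3 cells the ratio was 0.24. The same holds in part for Csrp3, a muscle LIM protein, with 60.3 against 2.67 CPM, a ratio of 2.47 that was 1.39 without those cells. The 4 cells were unlike the rest. The first, of HSC-2, had 12 Mcpt8, 10 Prss34, 18 Ms4a2, 5 Fcer1a and 29 Mpo UMIs and 0 Gzmb, and was the only labelled spleen cell with all 4 markers. The second had 15 Ms4a2 and 20 Mpo UMIs and the third 1 Mpo UMI, both with 0 Gzmb, 0 Mcpt8 and 0 Prss34. The fourth, of HSC-3, had 25 Gzmb and 30 Mcpt4 UMIs. The 3 cells of HSC-2 were the labelled spleen cells without Gzmb.

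**Figure D5:**
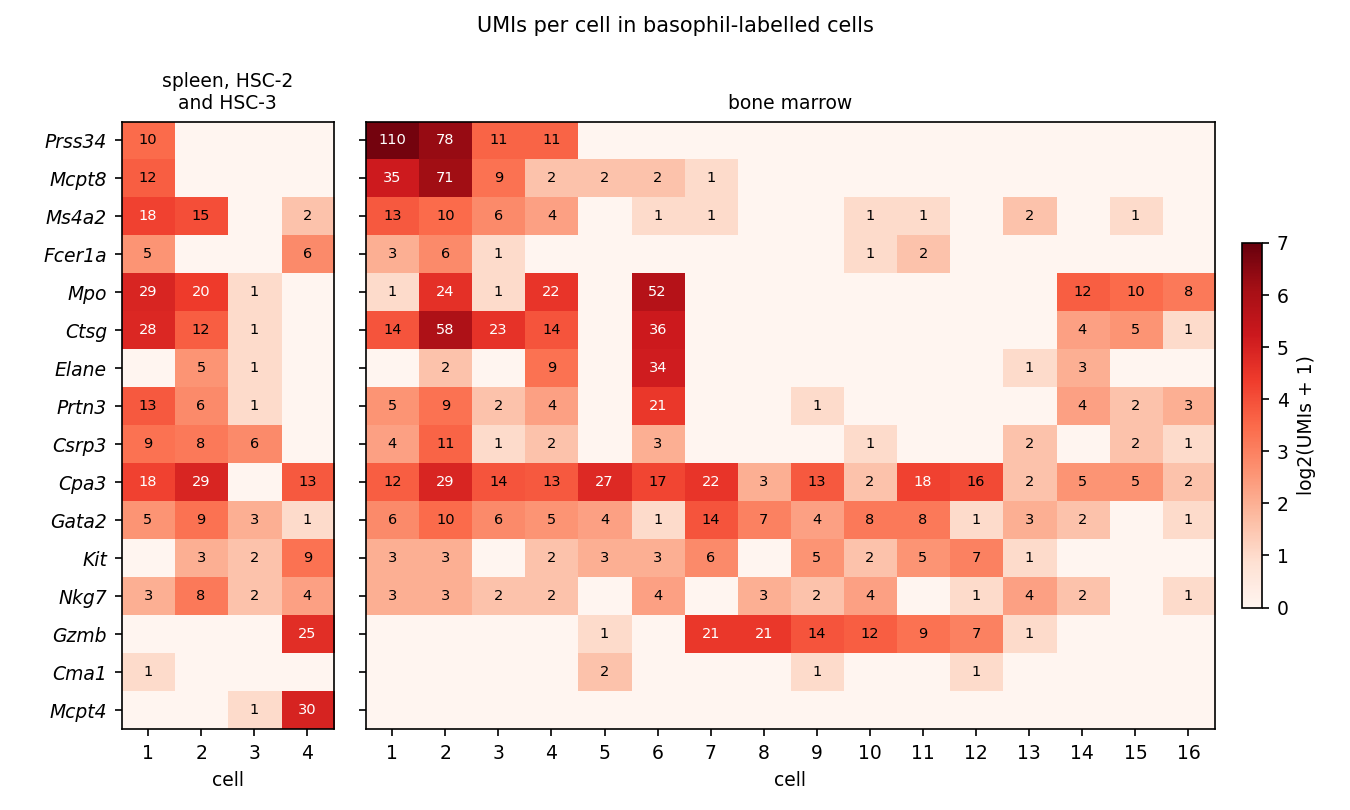
UMIs of 16 genes in each of the 4 labelled spleen cells of clusters HSC-2 and HSC-3 (left) and the 16 labelled bone marrow cells (right); colour gives log2(UMIs + 1), numbers the UMIs, and blank fields are 0. Prss34 and Gzmb were found in different bone marrow cells, with Mpo and Ctsg in the Prss34 cells and in the 4 cells with neither.

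The 16 labelled bone marrow cells were also mixed. Grouped by Prss34 and Gzmb, a division made after their values were seen, 4 cells had Prss34, 8 had Gzmb, 4 had neither and 0 had both. The 4 Prss34 cells held 110, 78, 11 and 11 UMIs of it, with 35, 71, 9 and 2 of Mcpt8 and 13, 10, 6 and 4 of Ms4a2, and each also had Mpo (1 to 24 UMIs) and Ctsg (14 to 58). They were the 4 cells that the other reference set called Ba-1. The 8 Gzmb cells had 1 to 21 UMIs of it and 0 of Prss34, Mpo and Ctsg, and 2 to 27 of Cpa3. The 4 remaining cells had 8 to 52 Mpo UMIs, 1 to 36 of Ctsg and 2 to 17 of Cpa3. All 16 cells had Cpa3, while Prss34, Mpo and Ctsg were each found in cells without Gzmb. Outside these 16 cells the split was not complete. Ctsg had UMIs in 16 labelled spleen cells, though only the 3 of HSC-2 lacked Gzmb, and 4 of 469 unlabelled spleen MCP cells had both Prss34 and Gzmb. Mcpt8 was less separate in the marrow, with 1 and 2 UMIs in 2 of the 8 Gzmb cells. In the spleen 48 of the 49 labelled Mcpt8 cells also had Gzmb. Since 109 labelled spleen cells had Gzmb, nearly all of them, that count does not show that the 2 transcripts go together.

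The tissues were compared over the same summed cells. Of 1215 genes measured between labelled spleen and labelled bone marrow cells, 80 (6.58%) were at least 2-fold higher in the spleen and 62 (5.1%) at least 2-fold lower, with a median of 0.02; 56.3% of these were higher, and 67.8% with TMM scaling, which moved the median gene by 0.11. Of 16 neutrophil and granulocyte-monocyte genes 5 were measured, and all 5 were lower in the spleen cells. A gene counts as measured by its mean over both tissues, so one high in a single tissue can pass through that tissue alone. The counts for this list and for the mast cell genes below are therefore not read as results about the lists. Mpo was 85.4 against 1641 CPM, 19.2-fold lower (13.8 to 27.1). Elane, neutrophil elastase, was 10.1 against 618 CPM, 61.5-fold lower (26.3 to 176), and Ctsg 117 against 1956 CPM, 16.7-fold lower (12.5 to 22.5). These folds rest on few cells. In the marrow, 34 of 49 Elane UMIs lay in 1 cell, and Mpo and Ctsg each had UMIs in 8 of 16 cells. In the spleen, 29 and 20 of 51 Mpo UMIs lay in 2 cells, and the 6 Elane UMIs in 2 cells. Without the 2 cells richest in each gene, marrow levels were 932 CPM for Mpo, 92.0 for Elane and 1053 for Ctsg. The spleen cells then had 2, 0 and 30 UMIs of these genes. Mcpt8 was 4.51-fold lower (3.57 to 5.67) over all cells. Without the 2 richest cells of each tissue, as given above, it was 260 CPM in the spleen and 288 CPM in the marrow cells. The latter value rested on 16 UMIs, and the step removed a larger share of the marrow cells, so the tissues are not called level. Of 8 measured mast cell genes, 6 were higher and 0 lower in the spleen cells, with Mcpt4 (248 against 0 UMIs) and Mcpt1 (218 against 0 UMIs) at least 11-fold and 9.65-fold higher at a floor of 3 UMIs, with 141 and 91 of these UMIs in 1 cell each. Kit was 2.88-fold higher (2.10 to 4.06) and Id2, a repressor of E proteins, 3.37-fold higher (2.44 to 4.80) in the spleen cells. Ms4a2, Fcer1a, Cpa3, Ccl3 and Ccl4 were within 2-fold. Calr, the chaperone calreticulin, was 196 against 1085 CPM, 5.54-fold lower (4.14 to 7.38), as were Pdia6 and Manf by smaller amounts, 3 of 6 measured unfolded protein response genes, while Hspa5, the BiP chaperone, was within 2-fold, at 558 against 631 CPM.

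Within the spleen, the labelled cells of cluster MCP and of HSC-1 shared Gzmb and differed in secreted factors. Gzmb was 7367 CPM in the 84 cells of MCP and 7731 in the 24 of HSC-1, Gata2 1500 and 1337 CPM, and Nkg7 665 and 717 CPM. Of 1940 measured genes, 56 (2.89%) were at least 2-fold higher and 48 (2.47%) lower in the MCP cells. Ccl4 was 13.3-fold higher (7.73 to 25.1), at 1531 against 115 CPM, Ccl3 8.04-fold higher (4.31 to 16.9), and Ccl2 132 against 0 UMIs, at least 11.2-fold higher at a floor of 3 UMIs. Mcpt8 was 418 CPM in 44 of 84 cells of MCP against 53.1 CPM in 4 of 24 cells of HSC-1, 7.86-fold higher (3.54 to 21.7), and Cpa3 3.49-fold and Hdc 3.17-fold higher. Klf2, a factor of quiescence and homing, was lower in the MCP cells, at 191 against 602 CPM. Depth was alike, with medians of 4939 UMIs in the MCP and 4579.5 in the HSC-1 cells, but the authors' clusters were made from these genes, so the split is a description. Between the Ba-4 and E/B cells of the other reference set, Gzmb (6865 and 7090 CPM), Mcpt8 (291 and 284 CPM) and Ms4a2 (498 and 439 CPM) were close.

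The same proteases separated the labelled cells from the 174 mast-labelled spleen cells of HSC-1, which had a median of 1205 UMIs. Here 275 of 4221 measured genes (6.52%) were at least 2-fold higher in the labelled cells and 256 (6.06%) lower. Gzmb was 7.18-fold higher (6.32 to 8.17) in the labelled cells, Mcpt8 7.47-fold higher (4.19 to 14.7), and Cma1 38.2-fold lower (32.6 to 45.0), at 273 against 10421 CPM. Against all 6434 other spleen cells, 740 of 7096 measured genes (10.4%) were higher and 631 (8.89%) lower; 54.0% of these were higher, and 37.7% with TMM scaling, which moved the median gene by −0.19. Of 11 measured basophil genes 10 were higher and 0 lower in the labelled cells, and of 10 measured mast cell genes 7 were higher and 1 lower. Mcpt8 was 106-fold higher (88.0 to 128) and Ms4a2 57.3-fold higher (49.6 to 66.0) than in those cells, and Cpa3 13.3-fold higher (12.6 to 14.1).

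Levels were compared over 19 groups of cells (library by cluster by label, at least 10 cells each). Only genes measured between labelled spleen cells and all other spleen cells were ranked, which leaves out Prss34. Of these, the genes whose log level followed Mcpt8 most closely were Smpd1 (Pearson's r = 0.943), Celf5 (0.934), Osm (0.923), Ero1l (0.921) and Gnaz (0.918). For Gzmb, chosen after its level was seen, they were Smarca1 (0.989), Ms4a2 (0.976), Cyp11a1 (0.975), Cx3cr1 (0.971) and Abcb1a (0.971). The groups share libraries and differ in depth, so these are descriptions. The group highest in Mcpt8 was the 14 labelled bone marrow MCP cells, with 71 and 35 of its 120 UMIs in 2 cells. Outside cluster MCP and the labelled cells, unlabelled groups had at most 20.8 CPM of Mcpt8 (bone marrow HSC-2) and at most 28.3 CPM of Gzmb (spleen HSC-1). In bone marrow MCP the 14 labelled cells had 1296 CPM of Gzmb and 1809 CPM of Mcpt8, against 505 CPM of Gzmb and 61.4 CPM of Mcpt8 in the 22 unlabelled ones.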

How the data were processed

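RNA of single LSK cells of spleen and bone marrow was measured, 1 library each (85937174 and 73740963 UMIs). The design text of the series gives Cell Ranger 3.1.0, the build mm10 and a depth near 27000 reads for each cell. The values deposited by the authors are UMI counts per gene and cell, without normalization. Per the submitters' processing notes, Seurat 3.1.5 was used and the genome build was mm9, in conflict with mm10; identifiers and coordinates here are those of mm10. Kit versions 3 and 3.1 are both named. How cells were filtered and doublets handled is not given in the sources used here, and no doublet caller was run. The deposited score columns (stemness, myeloid, erythroid and ER stress score, pseudotime) are the authors', with genes not stated, and no result rests on them. The number of deposited columns left aside as belonging to other samples was 0.

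All deposited cells were kept. Labels and clusters came from the deposited cell table. Symbols and coordinates came from GENCODE M21 by Ensembl identifier (31011 of 31053 identifiers; 35 symbols, Ddit3 among the listed genes, stand for more than 1, and the one richer in UMIs was taken). Counts were summed per group and scaled to CPM. Sums have exact Poisson intervals, ratios of sums exact conditional intervals, and shares of cells exact Clopper-Pearson intervals, at 95% and for counting error only. A gene was measured where its mean CPM over both sides gives at least 10 UMIs in the smaller sum. Higher or lower means at least 2-fold on the log2 scale with a pseudocount of 10 CPM. A fold against 0 UMIs used a floor of 3 UMIs per sum. Thinning was to 3400 UMIs (the 10th percentile of labelled spleen cells, rounded down) and, added after seeing the data, to 1000 UMIs. Python 3.11.15, numpy 2.4.6, scipy 1.17.1 and pandas 2.3.3 were used, and the sums were tested on simulated data.

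The cells and the 26 gene lists were chosen with earlier results of these data known. The named genes are the 12 highest and 12 lowest log2 ratios against unlabelled MCP cells, labelled bone marrow cells and all other spleen cells, without gene models; the 2 highest and 2 lowest measured members of each list against unlabelled MCP cells; and a fixed set of basophil, mast cell and sort gate genes. Cma2, Mcpt2, Mcpt9, Gzmc, Id2, Il6, Pdia6, Manf, the genes most like Gzmb and marker genes given as 0 were named outside this rule after their values had been seen. Alternatives were a mean over cells, thinning, TMM scaling, centring, other pseudocounts and count limits, and leaving out shallow, deep or marker-poor cells or the cells of HSC-2 and HSC-3. 1 gene that the rule names is not reported here.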

Additional observations from a re-analysis of the deposited data

How the results depend on the processing

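No paired analysis was possible because there is 1 library per tissue and no result comes from a test. Shares of cells with a marker moved beyond their intervals in 15 of 24 cases, and counts of genes past 2-fold by over 1.5 times in 11 of 30 against unlabelled MCP cells, 6 of 24 against labelled bone marrow cells and 4 of 22 against all other spleen cells. Against unlabelled MCP cells, the 318 higher genes became 563 with a mean over cells, 577 with a pseudocount of 1 CPM, 200 with TMM scaling, 205 with at least 20 expected UMIs, 194 without shallow cells (under 3326 UMIs), 171 at 3400 UMIs per cell and 62 with a pseudocount of 50 CPM. The 313 lower genes became 186 without the shallow cells, 175 at 1000 UMIs, 162 at 3400 UMIs and 133 with a pseudocount of 50 CPM. Against labelled bone marrow cells, the 80 higher and 62 lower genes became 26 and 27 at 3400 UMIs, 202 and 158 with at least 5 expected UMIs, and 20 and 28 with at least 20. Against all other spleen cells, the 740 higher genes became 318 with a pseudocount of 50 CPM, and the 631 lower ones 337 at 3400 UMIs, 208 with that pseudocount and 417 with at least 20 expected UMIs. The cause was not tested.

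Directions turned for 5 named ratios. Ciita and Dnase1l3 were both 0.0984 against all mast-labelled spleen cells, a small ratio of scarce transcripts. Against all other spleen cells, Fcer1a was −0.17 and Klf2 −0.21 with a mean over cells, and Tpsb2 was 0.20 without shallow cells. With at least 2 of the 4 markers required, labelled cells were 0.962% of the spleen and 0.0793% of the bone marrow library. Depth limits shares of cells with a marker, given here at 3400 and then at 1000 UMIs per cell. Mcpt8 was in 37.3% and 18.8% of labelled spleen cells, against 29.3% and 1.84% of unlabelled MCP cells. Prss34 was in 0.98% and 0% of labelled spleen cells, against 10.7% and 15.2%. Ms4a2 was in 73.5% and 31.3% of labelled spleen and 77.8% and 31.3% of labelled bone marrow cells, against 56% and 35.9%. Fcer1a was in 35.3% and 13.4% of labelled spleen and 44.4% and 6.25% of labelled bone marrow cells, against 68% and 80.4%.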
